A study of Caenorhabditis elegans with 2 samples.

Results

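Wnt signalling sets cell fates along the body axis of Caenorhabditis elegans, and 10 genes of its nuclear and β-catenin asymmetry branches were examined for peaks of the protein HMG-1.2. They were pop-1, sys-1, lit-1, wrm-1, bar-1, unc-37, dsh-2, mig-5, apr-1 and pry-1, out of 19973 nuclear protein-coding genes. They were listed by name as genes of a pathway in which HMG-1.2 has a known role. Earlier results of these data were known when they were chosen. Every deposited peak from 2000 bp upstream of each gene to its end was described. Chromatin immunoprecipitation followed by sequencing (ChIP-seq) had been run on whole young adults at 65 h of strain RW12210. At their own hmg-1.2 locus on chromosome III these animals carry a CRISPR insertion that fuses the gene to TY1, EGFP and 3xFLAG (allele st12210). There was 1 group with 2 biological replicates, so no conditions could be compared, and the labels do not say that the replicates came from separate cultures. The labels' description gives an anti-GFP antibody for the precipitation, and their antibody field gives hmg-1.2. Whole animals mix all tissues, so fewer cells with the protein at a site and less protein per cell cannot be told apart.

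In C. elegans, the Dishevelled proteins DSH-2 and MIG-5 pass the signal on from the receptors. PRY-1, an Axin, and APR-1, an APC protein, belong to the machinery that holds β-catenin levels down. WRM-1, a β-catenin, acts with the Nemo-like kinase LIT-1 to lower nuclear POP-1, the TCF/LEF factor of the worm. SYS-1 is a β-catenin that serves as coactivator of POP-1, and BAR-1 is the β-catenin of the canonical branch, known from the vulva and the migrating Q neuroblasts. UNC-37 is a Groucho corepressor. HMG-1.2, also called SON-1, is an HMG-box protein reported to act with Wnt signalling in the worm.

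Of the 10 genes, 7 held a peak of the authors' conservative set over both replicates, and 3 (wrm-1, bar-1 and apr-1) held none in any of the 4 thresholded sets. Over all protein-coding genes, 20.2% had a conservative peak in the same window (4038 of 19973). The windows of the 10 genes were longer, with a median of 6676.5 bp against 4027 bp for all. Among the 7162 genes with windows between the shortest and the longest of the 10 (4701 to 24414 bp), 28.1% had a conservative peak. With the gene body alone, 2 of the 10 genes (pop-1 and lit-1) had a conservative peak, against 9.12% of all genes. In the authors' other thresholded set the same 7 genes had a peak, against 27.4% of all genes. Replicate 1's own set held peaks at 5 of the 10 (sys-1, lit-1, unc-37, dsh-2 and mig-5), against 16.2% of all genes. Replicate 2's own set held peaks at the 7 genes again, against 25.8%. The genes that lacked a peak in replicate 1's set and had one in replicate 2's were pop-1 and pry-1.

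A narrower view took only summits in a promoter, here 500 bp upstream to 100 bp downstream of any annotated 5′ end of the gene. In the conservative set 5 of the 10 genes had such a summit (sys-1, lit-1, unc-37, dsh-2 and mig-5), against 9.68% of all genes. The other thresholded set added pry-1, which made 6, against 13.7%. In replicate 1's own set 4 genes remained (sys-1, unc-37, dsh-2 and mig-5), against 6.91%. Replicate 2's own set gave the 6 genes of the other thresholded set, against 13.3%. The promoter summits of sys-1, unc-37, dsh-2 and mig-5 were therefore present in all 4 sets.

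**Figure D1:**
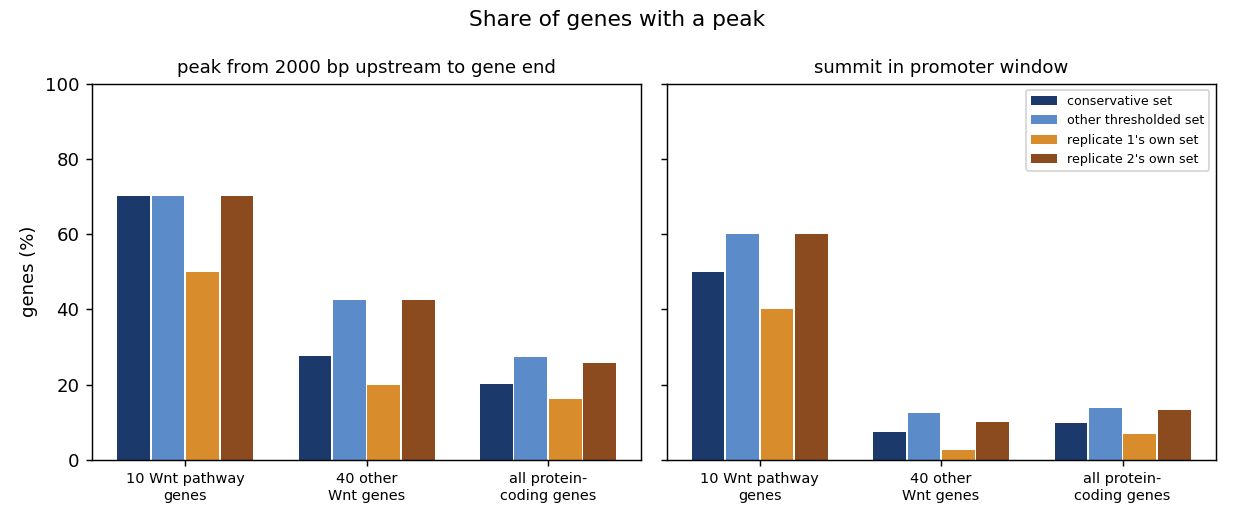
Share of genes (%, vertical axis from 0) with a peak from 2000 bp upstream to the gene end (left) or with a summit in the promoter window (right), in 4 thresholded peak sets, for the 10 Wnt pathway genes, 40 other Wnt genes and all protein-coding genes. Bars are single shares without error; on the left, 5 to 7 of the 10 genes have a peak, where all genes stand at 16.2% to 27.4%.

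The conservative set had 10 peaks in the 10 windows, which is 1.18 peaks per 10 kb, beside 0.430 over the merged windows of all protein-coding genes. lit-1, the longest gene, held 4 of the 10, and without it the density was 0.994 per 10 kb. These 4 include an overlapping pair in intron 8, counted as 2 peaks though replicate 2's own set had 1 peak across it. Overlapping peaks were counted singly for all genes too. The replicates' own sets gave 0.590 (replicate 1, 5 peaks) and 1.42 (replicate 2, 12 peaks), beside 0.345 and 0.554 for all genes. In each of these sets the members' density was above that of all genes, while the replicates differed from each other more than 2-fold in peaks. Both depths are unknown, so this difference between replicates is given only as a count.

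**Figure D2:**
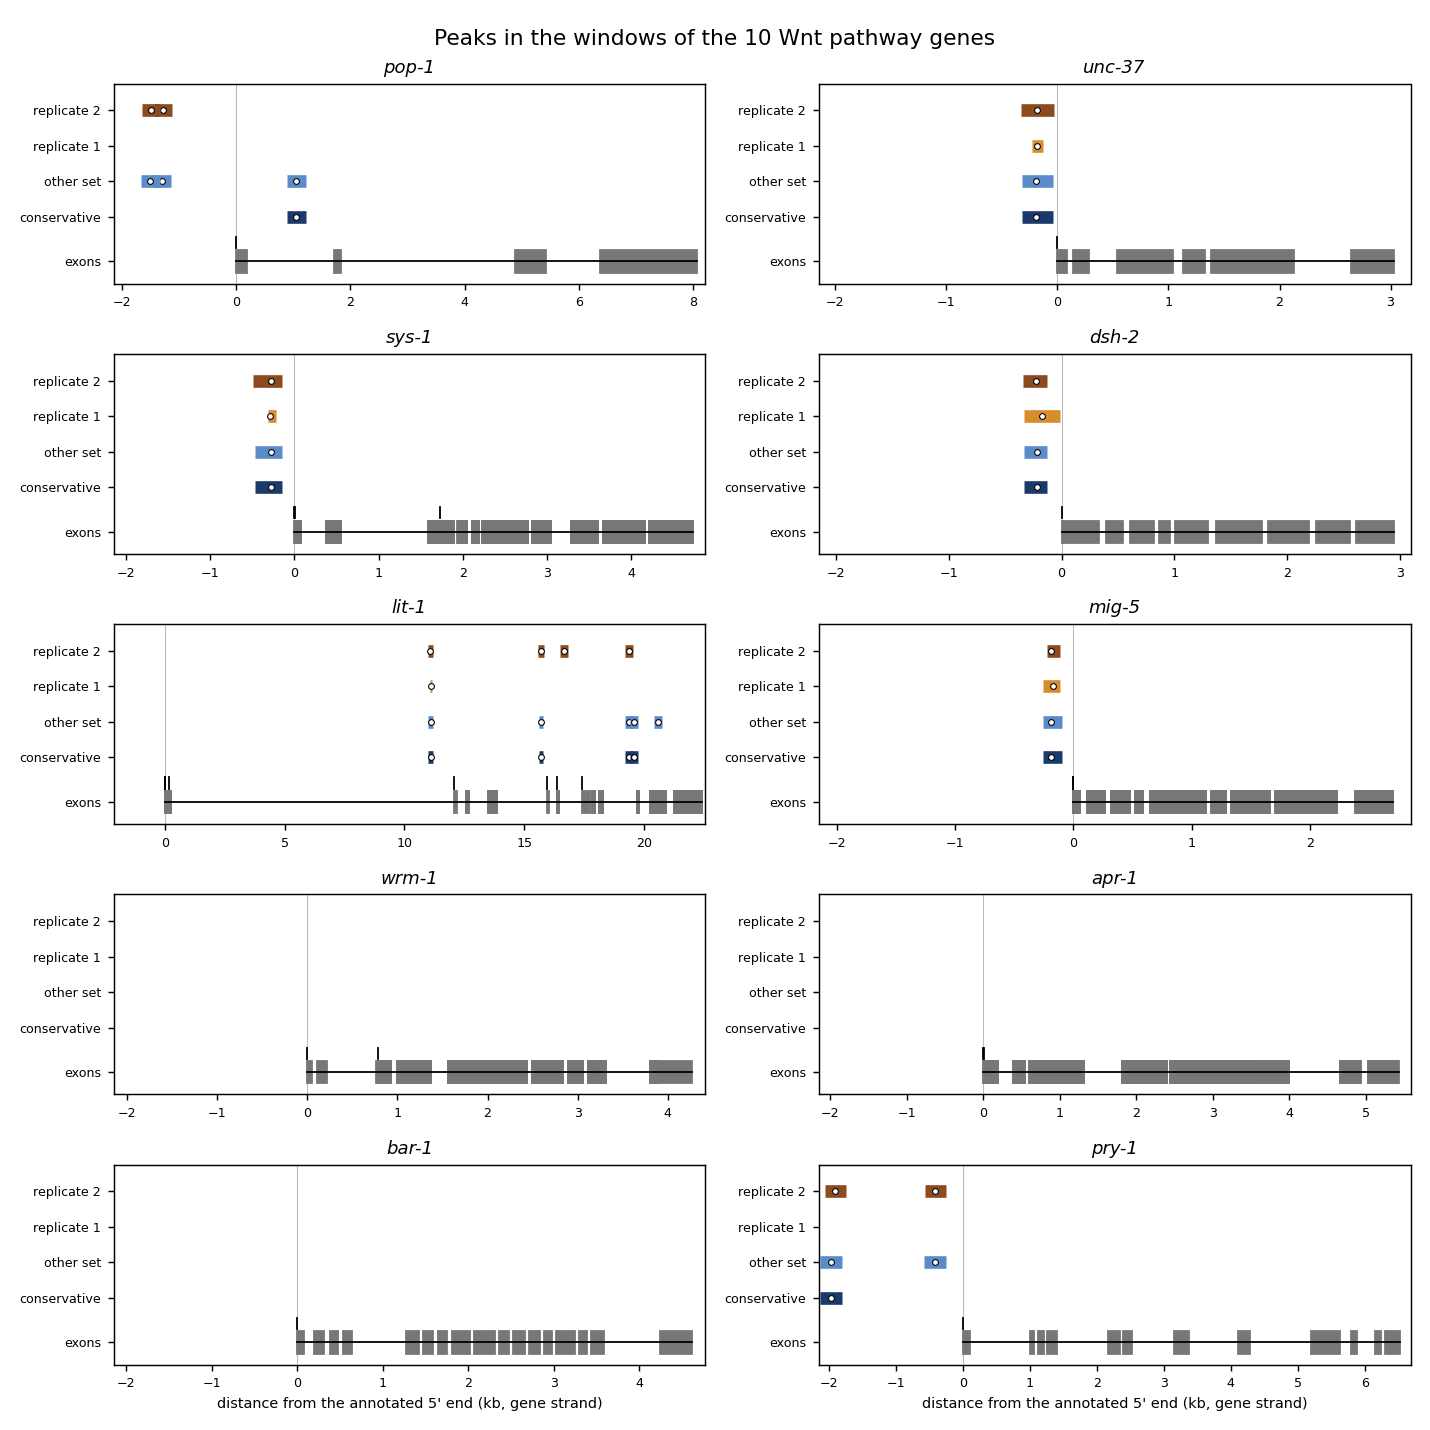
Peaks in the windows of the 10 genes, drawn on the strand of each gene with 0 at its annotated 5′ end (horizontal axis, kb). Grey boxes are exons, short ticks above them are annotated 5′ ends, coloured bars are peaks of the 4 thresholded sets and white dots are summits; sys-1, unc-37, dsh-2 and mig-5 have 1 peak just upstream in every set, and wrm-1, bar-1 and apr-1 have none.

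The peaks of both Dishevelled genes lay just upstream of the gene. dsh-2 (WBGene00001102, chromosome II, 5078233 to 5081174, minus strand, ce11) had a peak at chrII:5081302-5081507, with its summit at −220 bp from the 5′ end (negative values are upstream). Its deposited signal was 424, rank 1139 of the 4149 conservative peaks when ordered from the highest signal (top 27.5%). In the replicates' own sets the peak stood at rank 1816 of 3340 (top 54.4%) and at rank 930 of 5333 (top 17.4%), with summits 53 bp apart. The dsh-2 peak was thus present in both replicates, whose sets differ in length. The next gene upstream, C04G6.4, lies on the same strand and ends 315 bp away, so the summit is between these genes.

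mig-5 (WBGene00003241, chromosome II, 8182323 to 8185023, minus strand) had its peak at chrII:8185115-8185277, summit at −186 bp, signal 341, rank 1474 (top 35.5%). It was at rank 769 of 3340 (top 23.0%) in replicate 1's own set and at rank 2136 of 5333 (top 40.1%) in replicate 2's. The summits of the replicates were 14 bp apart. This peak cannot be given to mig-5 alone. The divergent gene cct-1, which encodes a subunit of the chaperonin that folds actin and tubulin, starts 420 bp away, and the summit is at −234 bp from its 5′ end. dsh-1, the other Dishevelled gene of the worm, had only a conservative peak farther upstream, at −1167 bp, with signal 124 and rank 3400, and none in replicate 1's own set.

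The kinase gene lit-1 (WBGene00003048, chromosome III, 13701991 to 13724404, plus strand) had its peaks far inside the gene, none of them near the first 5′ end. The gene has 7 annotated 5′ ends, several of them internal. Its strongest conservative peak, chrIII:13712994-13713189, lay in intron 2 of 10 of transcript W06F12.1d.2, −947 bp from the nearest internal 5′ end, with signal 476 and rank 971 (top 23.4%). It was in both replicates' own sets, at rank 1305 of 3340 (top 39.1%) and rank 924 of 5333 (top 17.3%), with summits 10 bp apart. This is the only lit-1 peak that both replicates' own sets held.

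The second lit-1 peak, chrIII:13717608-13717790, in intron 5, was −255 bp from an internal 5′ end and so counted as a promoter summit. It had signal 377 and rank 1314 (top 31.7%). Replicate 2's own set had it at rank 943 of 5333 (top 17.7%). Replicate 1 had only a ranked peak there with a score of 454, below the lowest score of 830 that passed into the thresholded sets. Scores follow the irreproducible discovery rate (IDR), which is low for peaks that rank consistently high in separate lists. A score of 830 corresponds to an IDR of 0.01. Intron 8 held a pair of overlapping conservative peaks of low rank, 3763 and 4116 of 4149, with signals of 102 and 7.99. Replicate 2's own set had 1 peak across this pair, at rank 4785, and replicate 1 a ranked peak with a score of 444. Replicate 2 alone had a further peak in intron 6 (signal 65.2), and the other thresholded set alone had one in a coding exon (signal 78.2). Of the lit-1 peaks, then, those in introns 2 and 5 carried the high ranks.

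The sequences below are 200 bp around the conservative summits of lit-1, dsh-2 and mig-5, read 5′ to 3′ on the strand of the gene from the WBcel235 (ce11) reference (lit-1 plus strand, dsh-2 and mig-5 minus strand). They are a selection of the members' conservative peaks, and word counts over all of these peaks are given further below. In this selection the summits of lit-1 and dsh-2 carry the same 8-letter word and that of mig-5 does not. Capitals mark CTGCGTCT or its reverse complement AGACGCAG. The word was picked after these sequences had been seen.
lit-1 intron 2, chrIII:13712998-13713197: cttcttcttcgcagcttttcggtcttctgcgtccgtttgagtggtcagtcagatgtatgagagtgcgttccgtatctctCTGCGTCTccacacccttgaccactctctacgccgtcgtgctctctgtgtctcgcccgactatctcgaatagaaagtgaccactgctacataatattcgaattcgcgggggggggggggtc
lit-1 intron 5, chrIII:13717610-13717809: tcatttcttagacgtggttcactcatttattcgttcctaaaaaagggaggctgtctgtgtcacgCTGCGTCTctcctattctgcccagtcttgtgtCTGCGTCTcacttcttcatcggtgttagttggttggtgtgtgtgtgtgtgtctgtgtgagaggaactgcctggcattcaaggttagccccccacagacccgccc
dsh-2 promoter, chrII:5081294-5081493: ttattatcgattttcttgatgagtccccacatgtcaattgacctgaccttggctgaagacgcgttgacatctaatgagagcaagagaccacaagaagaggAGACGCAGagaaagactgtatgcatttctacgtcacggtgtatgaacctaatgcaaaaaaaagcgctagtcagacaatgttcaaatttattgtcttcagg
mig-5 promoter, chrII:8185109-8185308: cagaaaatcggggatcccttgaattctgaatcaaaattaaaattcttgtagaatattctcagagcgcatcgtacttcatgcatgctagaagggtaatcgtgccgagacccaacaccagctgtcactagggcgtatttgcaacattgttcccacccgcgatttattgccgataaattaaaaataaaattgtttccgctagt
Intron 5 of lit-1 has 2 copies, with the centre of the nearer one 0.5 bp from the summit. The single copies in intron 2 of lit-1 and upstream of dsh-2 have their centres 17.5 and 4.5 bp from the summit. The dsh-2 copy is on the strand opposite to the gene, and the mig-5 stretch has no copy.

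Among the destruction-complex genes, pry-1 had peaks of low rank and apr-1 had none. pry-1 (WBGene00004202, chromosome I, 14172828 to 14179360, minus strand) had a conservative peak at chrI:14181163-14181492, with its summit at −1968 bp, just inside the 2000 bp limit, signal 107 and rank 3676 (top 88.6%). Replicate 2's own set had it at rank 4275 of 5333, and replicate 1 had a ranked peak with a score of 389. The summit of a second pry-1 peak, at −412 bp, was in the other thresholded set (signal 127, rank 3736 of 6058) and in replicate 2's own set (rank 3109 of 5333). In the ranked list behind the conservative set that nearer peak had an IDR of 0.615, and replicate 1's ranked list had no peak over it. Of the replicates' own sets, then, replicate 2's alone held the pry-1 peaks. For apr-1 (WBGene00000156, chromosome I, 8050037 to 8055475, plus strand) the peak of highest signal in the conservative ranked list was at −343 bp, rank 19050 of 52039, with an IDR of 0.329.

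The β-catenin genes differed. sys-1 (WBGene00006379, chromosome I, 9980063 to 9984794, minus strand) had the second strongest conservative peak of the 10 genes, chrI:9984948-9985258. The peak had its summit at −284 bp, signal 811 and rank 483 (top 11.6%). The replicates' own sets had it at rank 1177 of 3340 (top 35.2%) and rank 353 of 5333 (top 6.62%), with summits 7 bp apart. The next gene upstream, his-67, ends 3657 bp away. Thus sys-1 had 1 upstream peak in every set.

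wrm-1 (WBGene00006943, chromosome III, 5722850 to 5727115, plus strand) had no thresholded peak. Its peak of highest signal in the conservative ranked list was at −789 bp, with signal 70.0, rank 6567 of 52039 and an IDR of 0.113, above the limit of 0.01. bar-1 (WBGene00000238, chromosome X, 7166005 to 7170625, minus strand) had no peak even in the ranked lists over both replicates, as was the case for 36.3% and 34.4% of all protein-coding genes. Replicate 1's ranked list alone had weak peaks in the bar-1 window, the best at rank 33871 of 39515. In the conservative ranked list the lowest IDR of any peak in the window was 0.113 for wrm-1 and 0.295 for apr-1. The other ranked list over both replicates gave 0.341 and 0.306. Both genes thus stayed above the limit in both lists, with no fixed order between them. A gene without a peak was not detected at these thresholds, and the depth that would say how small a signal could be missed is unknown.

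The nuclear genes unc-37 and pop-1 differed in place and rank of their peaks. unc-37 (WBGene00006773, chromosome I, 6742299 to 6745329, minus strand) had the strongest conservative peak of the 10 genes, chrI:6745365-6745652. The peak had its summit at −191 bp, signal 859 and rank 436 (top 10.5%). It was at rank 1259 of 3340 (top 37.7%) in replicate 1's own set and at rank 318 of 5333 (top 5.96%) in replicate 2's, with summits 8 bp apart. The gene upstream, fnci-1, is on the same strand and ends 661 bp away.

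pop-1 (WBGene00004077, chromosome I, 2822243 to 2830311, minus strand) had no promoter summit in any set. Its conservative peak, chrI:2829094-2829423, was in intron 1 of 3, at 1052 bp downstream of the 5′ end, with signal 122 and rank 3427 (top 82.6%). Neither replicate's own set held it, and the ranked peaks there had scores of 559 in replicate 1 and 553 in replicate 2. An upstream pop-1 peak at −1303 bp was in the other thresholded set (signal 152, rank 3249 of 6058) and in replicate 2's own set (rank 2675 of 5333). Replicate 1 had a ranked peak there with a score of 206. A weak neighbour of that peak, at −1503 bp, was also in the other thresholded set, with signal 19.5, and replicate 2's own set had it at −1492 bp, at rank 5324 of 5333. The upstream summit lies within W10C8.8, annotated as a non-coding RNA gene. The calls at pop-1 thus differed between the sets in place as well as in number.

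Taking the 10 conservative peaks as a whole, 5 overlapped a peak in each replicate's own set by at least 1 bp, beside 63.6% of all conservative peaks (2640 of 4149). These were the peaks of sys-1, unc-37, dsh-2, mig-5 and intron 2 of lit-1. The 10 count the overlapping pair in intron 8 of lit-1 as 2 peaks. Since the replicates' own sets differ in length, the ranks were also taken over the 2640 shared peaks alone. There unc-37 stood at rank 1240 in replicate 1 and 315 in replicate 2, sys-1 at 1162 and 350, and lit-1 at 1287 and 859. dsh-2 stood at 1737 and 864, and mig-5 at 764 and 1660. Thus 4 of the 5 ranked higher in replicate 2, as did 47.1% of the 2635 other shared peaks, and mig-5 ranked higher in replicate 1. The median deposited signal of the 10 was 359, beside 240 for the whole conservative set, and 6 of the 10 were above that median. In the other thresholded set the order turned, with a median of 139 for the 14 peaks in the windows and 163 for the list, and 6 of the 14 above it. The replicates' own sets gave medians of 120 (5 peaks) beside 93.2 in replicate 1 and 147 (12 peaks) beside 131 in replicate 2. For scale, hmg-1.2 itself, the locus that carries the tag insertion, had a conservative promoter peak at −92 bp. Its signal of 2495 and rank of 60 were above every peak of the 10 genes. In the replicates' own sets this hmg-1.2 peak stood far apart, at rank 553 of 3340 (top 16.6%) in replicate 1 and rank 15 of 5333 (top 0.281%) in replicate 2. Genes for tRNAs, snRNAs or snoRNAs lay within 200 bp of none of the peaks of the 10 genes in any thresholded set.

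**Figure D3:**
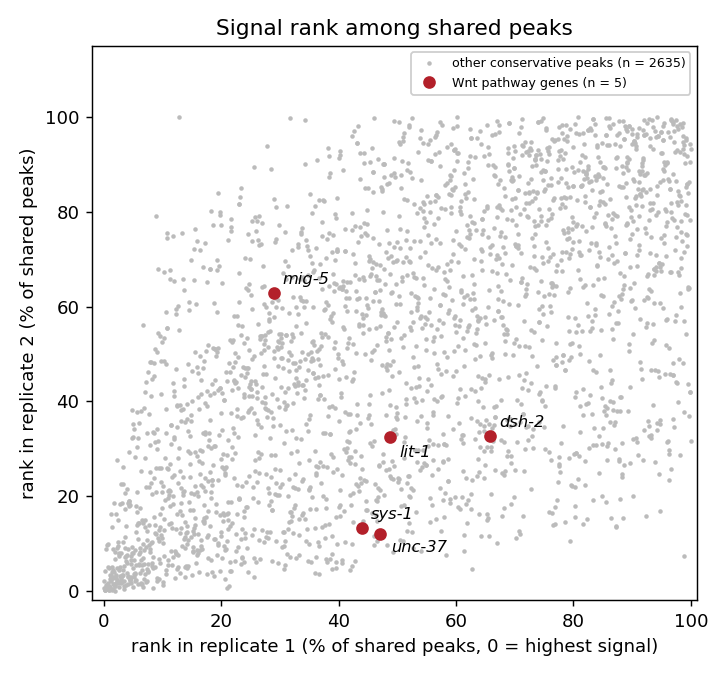
Signal rank of the 2640 conservative peaks found in the own sets of both replicates, as % of these shared peaks in replicate 1 (horizontal) and in replicate 2 (vertical), where 0 is the highest signal. Red points are the 5 peaks of the Wnt pathway genes and grey points the 2635 others; 4 red points, like 47.1% of the grey ones, have the smaller value on the vertical axis, and mig-5 has it on the horizontal.

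In windows of 300 bp, the words that POP-1 is known to recognise were about as common at these peaks as over all peaks. Searched on both strands in 300 bp around the summit were 4 words of 7 letters, the core CTTTG followed by AA, AT, TA or TT. They were found in 2 of the 10 conservative peaks, those of unc-37 and pry-1, beside 19.1% of all conservative peaks. Of all protein-coding promoters of the same length (250 bp upstream to 50 bp downstream), 24.6% had one. The word upstream of unc-37 had its centre 9 bp from the summit and that of pry-1 57 bp. The core CTTTG alone was in 4 of the 10 peaks, beside 43.3% of all conservative peaks. A word is a match of letters only and does not show a bound factor.

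The word CTGCGTCT was in 7 of the 10 conservative peaks, beside 27.4% of all conservative peaks and 3.54% of promoters of the same length. It was picked from these members, so the 7 of 10 is a description and not a result about them. The genes with a copy were pop-1, sys-1, lit-1 (3 of its 4 peaks), dsh-2 and pry-1, while unc-37 and mig-5 had none. Its centre was within 37.5 bp of the summit in all of these but sys-1, where it was 129.5 bp away. Sequence was printed above for none of pop-1, sys-1, unc-37 and pry-1. The strongest conservative peaks, those of unc-37 and sys-1, are on chromosome I and therefore missing from the printed selection. In replicate 1's own set the mig-5 peak had the highest signal of the members' peaks (179), above sys-1 (127) and unc-37 (120). With 1 more letter, CTGCGTCTC, a word that contains the first, 6 of the 10 peaks had it, beside 25.3% of all conservative peaks and 2.93% of promoters. The members' peaks also varied in base composition, with a GC content of 33.7% (mig-5) to 59.0% (lit-1 intron 8) in 300 bp and a median of 44.3%, beside 41.3% for all conservative peaks.

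**Figure D4:**
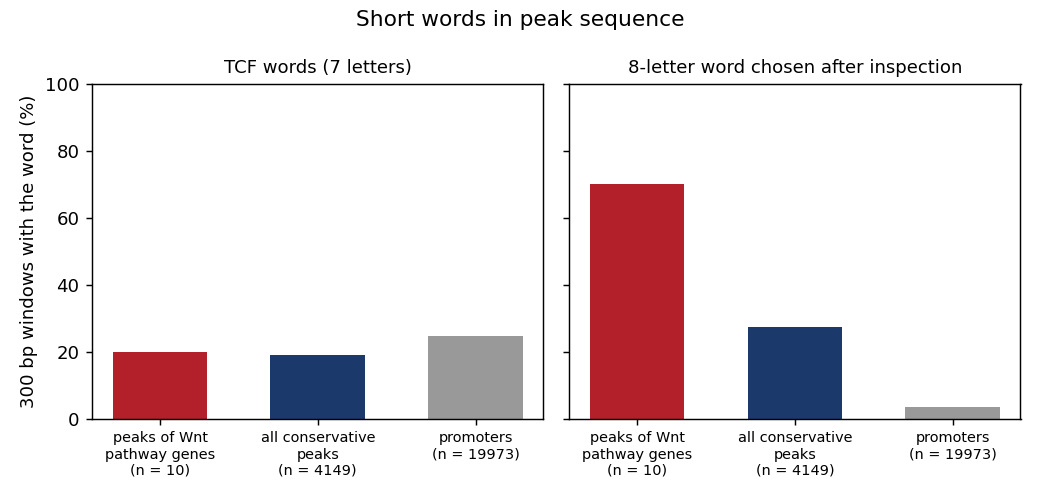
Share of 300 bp windows (%, vertical axis from 0) with a TCF word of 7 letters (left) or with the 8-letter word picked after the sequences were seen (right), for the 10 conservative peaks of the Wnt pathway genes, all 4149 conservative peaks and 19973 promoters. Bars are single shares without error; the TCF words are in 2 of the 10, 19.1% and 24.6%, and the 8-letter word in 7 of the 10, 27.4% and 3.54%.

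The rest of the pathway was described with 40 further Wnt genes. In the conservative set 11 of them had a peak (27.5%) and 3 had a promoter summit (par-5, lsy-22 and cbp-1; 7.5%), beside the 20.2% and 9.68% of all genes. Their windows, with a median of 6158 bp, were also longer than those of all genes, and their peak density was 0.483 per 10 kb beside 0.430. The par-5 summit at −157 bp is nearer to the 5′ end of M117.3, at −125 bp. Among the 10 genes above, the corresponding counts were 7 and 5. The other thresholded set gave 17 and 5 of the 40, beside 27.4% and 13.7% of all genes. Replicate 1's own set gave 8 and 1, beside 16.2% and 6.91%. Replicate 2's own set gave 17 and 4, beside 25.8% and 13.3%.

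By role, the 5 Wnt ligands had no conservative peak in their windows, and of 7 receptors and membrane proteins only cam-1, a Ror-type receptor kinase, had one (signal 253). Of 4 genes of ligand secretion mom-1, a Porcupine, had peaks, but their nearest 5′ ends belonged to other genes (lev-9 and cest-16). Cytoplasmic components had peaks in 4 of 7 genes: dsh-1, kin-19 (a casein kinase), mom-4 (a TAK1-type kinase) and par-5 (a 14-3-3 protein). Of the 5 nuclear cofactors 3 had one. cbp-1, the worm p300/CBP acetyltransferase, had summits at −835 bp (signal 1069, rank 306) and −117 bp (signal 672, rank 622), both in replicate 1's own set too. dpy-22, a Mediator subunit, had a summit at −537 bp (signal 744, rank 531), and lsy-22, a Groucho-related protein, had one of low rank (3960). The lsy-22 summit lay in an intron, 11306 bp inside the gene, and counted as a promoter summit at −277 bp from an internal 5′ end. Neither replicate's own set held this lsy-22 peak. Of 9 target genes only egl-18, a GATA factor, had a conservative peak, and hmp-2, the β-catenin of cell adhesion, had one whose nearest 5′ end was that of K05C4.7. In the conservative set the first cbp-1 peak was the only one of the 40 genes with a higher signal than the unc-37 peak. In replicate 1's own set both mom-1 peaks (443 and 202) and both cbp-1 peaks (304 and 243) were above unc-37 (120).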

How the data were processed

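ChIP-seq peak lists of 2 replicates of 1 group were used as deposited, on the ce11 build per the labels. Which aligner and peak caller were used is not given in the sources used here, and control libraries were not analysed here. The score the authors deposited for each peak is based on the IDR and capped at 1000; the conservative set has 4149 peaks, the other thresholded set 6058, and the replicates' own sets 3340 and 5333. A deposited −log10 of the global IDR stands in the ranked lists made over both replicates. The scale of the signal the authors deposited is not stated, and it served only to describe or rank peaks within 1 list. Read totals are not in the lists, so depth is unknown and no interval is given. Columns of other samples numbered 0.

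Genes came from Ensembl release 115 (WBcel235). A peak was counted where it overlapped a window by at least 1 bp, and a summit was taken from the deposited offset. Sequence was read from the RefSeq WBcel235 genome. Python 3.11.15, pandas 2.3.3, numpy 2.4.6 and matplotlib 3.10.9 were used, and the counting was tested on simulated data. With 1 group no test was made, and the shares over all genes stand beside the counts. The 10 genes, the list of 40 other Wnt genes and the words were chosen with earlier results of these data known. Named were the 10 genes, hmg-1.2, the genes nearest to their peaks, and of the 40 those with a conservative promoter summit or, up to 10 in all, the highest signal. dsh-1 is outside this rule and was named after its values were seen, to complete the Dishevelled genes, and so were the neighbouring genes named for position. Alternatives changed the peak set, the window, the promoter, the overlap and the word search; the word CTGCGTCT, its alternatives and the ranks over shared peaks were added after seeing the data.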

Additional observations from a re-analysis of the deposited data

How the results depend on the processing

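With the gene body alone, 2 of the 10 genes (pop-1 and lit-1) had a conservative peak in place of 7, with 5 peaks in place of 10, and 6 of the 40 other Wnt genes in place of 11, beside 9.12% of all genes. The conservative peaks above the median signal gave 6 peaks at 5 of the 10 genes (11.3% of all genes). Of the 40 genes, 4 had such a peak and 1 such a promoter summit (5.19% of all genes). The other thresholded set gave 17 and 5 of the 40 (27.4% and 13.7% of all genes). With the set of 1 replicate in place of that over both, which is a list built in another way, peaks at the 10 genes ranged from 5 to 12 and their density from 0.590 to 1.42 per 10 kb. The 40 genes ranged from 8 to 17 with a peak (16.2% to 25.8% of all genes) and from 1 to 4 with a promoter summit (6.91% to 13.3%). A promoter of 250 bp upstream to 50 bp downstream left 3 of the 10 genes (unc-37, dsh-2 and mig-5; 6.07% of all genes), and one of 1000 bp upstream to 200 bp downstream gave 6 of the 40 (12.7% of all genes). Widening the window to 5000 bp upstream added none of the 10 genes (28.1% of all genes). TCF words were in 1 of the 10 member peaks in windows of 100 bp, beside 4.84% of all conservative peaks. In windows of 200 bp they were in 2 of the 10, beside 12.4%. The 5-letter core was in 4 of the 10 in windows of 300 bp, beside 43.3%. The density was 0.708 per 10 kb above the median signal and 0.772 in the gene body alone. No density over all genes was computed at these settings, so these values have no background beside them. The other alternatives stayed within 1.5 times the reported values. No paired analysis was possible because there is 1 group. Depth is unknown, so absence of a peak sets no limit on binding, and the signal scale is not stated.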
